A study of Mus musculus with 72 samples.

Results

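The genes described here are 6 markers of olfactory ensheathing glia, S100b, Sox10, Frzb, Npy, Fabp7 and Foxd3, taken by symbol from a fixed list out of the 54532 genes counted in mouse olfactory epithelium. Ensheathing glia arise from the neural crest. They wrap the axons of olfactory sensory neurons in the connective tissue under the epithelium and along the olfactory nerve, and they carry no myelin. Sox10 and Foxd3 are transcription factors of the neural crest and of early glia. S100b is a calcium-binding protein of glia and Fabp7 is a fatty acid-binding protein of immature and ensheathing glia. Npy is a secreted neuropeptide, and Frzb is a secreted protein that binds Wnt ligands and so keeps them from Frizzled receptors, of which Fzd1 is one.

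The study measured total RNA by sequencing in 72 libraries in 25 groups. The ectopicFzd1 mice carried Omp-IRES-tTA with tetO-Fzd1-IRES-tdTomato, Fzd1lacZ mice carried the Fzd1-lacZ knockout allele, and control mice carried Omp-IRES-tTA. All 3 genotypes were sampled without doxycycline (DOX) at postnatal days (P) 0, 3, 7, 10 and 14, and DOX was given from birth to further ectopicFzd1 and control mice, whose first age was P1 and whose later ages were the same. The titles mark ectopicFzd1 libraries as het, Fzd1lacZ libraries as homo and control libraries as wt, or as ctrl at P3 without DOX. Groups held 3 libraries, except ectopicFzd1 P14, control P3 and control P7 without DOX, which held 2. The activator tTA is made under the Omp gene, which marks mature olfactory sensory neurons, so the transgene is driven in neurons and not in glia, and DOX shuts it off. The knockout was set against Omp-IRES-tTA mice, which carry the tTA insertion, and the labels do not state that libraries of a group came from separate animals, so p-values measure the spread between these libraries.

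Gene counts per library ran from 1.31 M to 8.79 M, with a median of 4.28 M, and a family of 12 genes of the Gm10800 type took 0.0530% to 71.0% of them. That family passed 25% in 7 libraries. Fzd1 was at 205 to 2122 CPM (read counts scaled to a common library size, with TMM factors) in 13 of the 14 ectopicFzd1 libraries without DOX, at 3.48 to 20.3 CPM in Fzd1lacZ libraries and at 20.9 to 44.3 CPM in control libraries without DOX. With DOX, Fzd1 was at 22.0 to 64.0 CPM in ectopicFzd1 libraries and at 20.7 to 54.3 CPM in 14 of the 15 control libraries. The library labelled ectopicFzd1 P3 replicate 3 stood at 43.0 CPM and the library labelled control DOX P7 replicate 1 at 3.45 CPM, and these went against their labels. All 3 titles of ectopicFzd1 with DOX at P3 carry 1 ID, and ectopicFzd1 DOX P14 replicate 1 and ectopicFzd1 DOX P10 replicate 3 share another.

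All 6 members passed the filter on low counts. On the length-scaled TPM of the deposited table, Fabp7 was the most abundant, with a median of 52.3 TPM over the 72 libraries (13 to 201 TPM). S100b had a median of 5.48 TPM, Sox10 of 2.23 TPM, Npy of 2.05 TPM, Frzb of 0.800 TPM and Foxd3 of 0.255 TPM. Foxd3 rested on a median of 5 reads per library and Npy was listed at 0 TPM in some libraries, so their values carry a large counting error. When the 25 groups were ranked by a member's mean CPM, the ranges of all 24 pairs of neighbouring groups overlapped, for each of the 6 members. Other defining genes of these glia were present, with medians of 7.46 TPM for Erbb3 and 0.6 TPM for Ngfr. Among genes of central glia and myelin, Mog had a median of 0.105 TPM and was listed at 0 in 21 libraries. Mbp (6.39 TPM), Olig2 (6.69 TPM) and Aqp4 (39 TPM), given as medians, were at 0 in no library. The epithelium is bulk tissue, in which fewer glia and less RNA per glial cell cannot be told apart.

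In mm10 coordinates with GENCODE annotation, S100b lies at chr10:76253853-76261159 on the plus strand and Fabp7 at chr10:57784881-57788450 on the plus strand. Npy lies at chr6:49822710-49829507 on the plus strand, Foxd3 at chr4:99656299-99658622 on the plus strand, Sox10 at chr15:79154908-79165240 on the minus strand and Frzb at chr2:80411970-80447625 on the minus strand. All 6 are protein-coding, and counts were summed over whole genes. S100b overlaps Dip2a on the opposite strand and Foxd3 overlaps the miRNA gene Gm23366 on its own strand, and whether counting used the strand of a read is not given in the sources used here.

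Of the 6 members, 5 had an entry in the RefSeq promoter table of GRCm38.p6, the assembly of mm10. The stretches upstream of Fabp7 and of Npy are printed because these members varied most closely together between libraries. Fabp7 spans chr10:57784673-57784880 and Npy spans chr6:49822460-49822709, both on the plus strand, and capitals mark the letters CCAAT (written ATTGG where it lies on the opposite strand) and TGGGAA (written TTCCCA on the opposite strand).
Fabp7: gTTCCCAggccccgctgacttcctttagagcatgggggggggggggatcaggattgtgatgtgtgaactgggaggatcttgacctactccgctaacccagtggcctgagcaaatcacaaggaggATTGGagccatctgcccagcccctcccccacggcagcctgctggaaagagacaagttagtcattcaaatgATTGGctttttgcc
Npy: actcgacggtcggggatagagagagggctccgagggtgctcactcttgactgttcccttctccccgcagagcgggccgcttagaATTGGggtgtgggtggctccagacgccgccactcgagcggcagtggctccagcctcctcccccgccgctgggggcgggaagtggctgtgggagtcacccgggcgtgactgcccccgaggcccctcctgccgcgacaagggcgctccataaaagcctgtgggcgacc
CCAAT was found at 2 places in the 208 bases of Fabp7 and at 1 place in the 250 bases of Npy, on the opposite strand each time. Among all 32851 promoter entries, 29.6% held it in a window of 208 bases and 33.8% in a window of 250 bases. TGGGAA stood once in the Fabp7 window, and 18.5% of all windows of that length held it. The SOX word, CAANG with N as A or T and with A or T at both places before it, had no match on either strand of these windows, and was held by 19.1% of windows of 208 bases and 21.8% of windows of 250 bases. One of its spellings, ATCAAAG, is also the LEF/TCF word. A match is one of letters and not a binding site.

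Without DOX, the members followed different courses after birth. From P0 to P14, averaged over the 3 genotypes, Fabp7, Foxd3 and S100b rose and Sox10 fell, while Frzb and Npy did not pass the test. The background was high, since 58.8% of the 22144 genes tested passed an adjusted p of 0.05 in edgeR's quasi-likelihood test, 31.6% of them as higher and 27.2% as lower, so 4 of 6 members is close to the share of all genes. The median log2 fold change of the 6 members was 0.79, against 0.06 over all genes. Age and the ID series in the titles cannot be told apart in this course.

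Fabp7, the most abundant member, had a lowest, median and highest value of 73.8, 115 and 137 CPM in the 8 P14 libraries, against 19.0, 28.4 and 44.8 CPM in the 9 P0 libraries. The ages did not overlap. Fabp7 rose by a log2 fold change of 1.91 (SE 0.25, edgeR adjusted p = 2.3e-09), and within genotypes it was 1.90 in ectopicFzd1, 1.77 in Fzd1lacZ and 2.06 in control mice. An F test for a difference of the P0 to P14 change among genotypes called 0 of 6 members, among 3.94% of genes, and 0 had an unadjusted p under 0.05. The step from P0 to P3, in which 19.1% of genes passed, was 1.15 (SE 0.25, adjusted p = 0.000402). The step from P3 to P7, with 24.2% of genes, was 0.76 (SE 0.25, adjusted p = 0.0206). The second step fell short of the threshold when control P7 replicate 1, control P3 replicate 2 or ectopicFzd1 P3 replicate 1 was left out, with estimates of 0.61 to 0.69 and adjusted p of 0.0538 to 0.0983. It also did so with the ID series as a covariate (0.92, adjusted p = 0.49) and with only the compared groups fitted (0.81, adjusted p = 0.0778). No member passed in the steps from P7 to P10 and from P10 to P14, in which 2.33% and 0.524% of genes did, and Frzb and Npy had an unadjusted p under 0.05 in the last step.

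S100b stood at 18.2, 21.6 and 27.4 CPM (lowest, median and highest) at P14, against 9.1, 10.99 and 15.8 CPM at P0, again without overlap. The log2 fold change was 0.93 (SE 0.15, adjusted p = 6.3e-07), and no single step between neighbouring ages passed the test. In the deposited TPM the ranges did overlap, at 3.96 to 8.49 TPM at P14 and 3.48 to 7.22 TPM at P0. On log2(TPM + 1) the change was 0.20 with a limma adjusted p of 0.316, on a scale on which the median gene moved by -0.40.

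Foxd3, at the edge of detection, stood at 1.17, 2.02 and 3.04 CPM (lowest, median and highest) at P14, against 0.236, 0.464 and 0.844 CPM at P0, from 4 to 14 reads and 1 to 5 reads per library. Its log2 fold change was 1.92 (SE 0.41, adjusted p = 7.0e-05). Its step from P0 to P3 was 1.14 (SE 0.40, adjusted p = 0.0361), and 8 of the 17 libraries ended that call when left out singly, with estimates of 0.85 to 1.14 and adjusted p of 0.0516 to 0.189. These were Fzd1lacZ P3 replicate 1, Fzd1lacZ P0 replicates 1 and 2, control P0 replicates 1 and 2, control P3 replicate 2, ectopicFzd1 P0 replicate 3 and ectopicFzd1 P3 replicate 2.

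Sox10 fell. It stood at 8.27, 11.4 and 13.2 CPM (lowest, median and highest) at P14, against 19.6, 24.3 and 36.6 CPM at P0, and the ages did not overlap. The log2 fold change was -1.17 (SE 0.17, adjusted p = 3.5e-08), and it was -1.40 in ectopicFzd1, -1.06 in Fzd1lacZ and -1.05 in control mice. The step from P0 to P3 was -0.69 (SE 0.15, adjusted p = 0.000657). Sox10 is also made in other neural crest derivatives and in secretory glands. The other neural crest list fell with it, with 4 of 7 genes lower and 0 higher, and its summed level was 50.7 to 77.1 CPM at P14 and 82.8 to 147 CPM at P0. Nasal gland genes summed to 3349 to 14499 CPM at P14 (median 8048 CPM) and to 2475 to 7619 CPM at P0 (median 4661 CPM). The part of those cells in the Sox10 level was not tested.

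Frzb had a lowest, median and highest value of 2.63, 3.91 and 6.13 CPM at P14, against 1.58, 3.35 and 7.30 CPM at P0. Npy had 0.871, 1.70 and 3.84 CPM at P14, against 0.671, 1.31 and 2.25 CPM at P0. The log2 fold changes were 0.36 (SE 0.36, adjusted p = 0.394) for Frzb and 0.65 (SE 0.48, adjusted p = 0.245) for Npy. Both were highest between these ages, with medians at P10 of 7.30 CPM for Frzb and 3.16 CPM for Npy. An F test over all ages without DOX passed for each of the 6 members (edgeR adjusted p of 0.00903 for Frzb and 0.00789 for Npy), as it did for 68.3% of genes. That F test was not repeated without the single libraries, described below, that stood high in Frzb and Npy. The step of Frzb from P0 to P3 was 0.89 (SE 0.32, adjusted p = 0.0396), but it was 0.24 (adjusted p = 0.597) without ectopicFzd1 P3 replicate 2. Leaving out any 1 of 8 further libraries (Fzd1lacZ P3 replicates 2 and 3, Fzd1lacZ P0 replicates 1 and 3, ectopicFzd1 P0 replicates 2 and 3, control P3 replicate 1 and control P0 replicate 3) also ended the call.

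**Figure D1:**
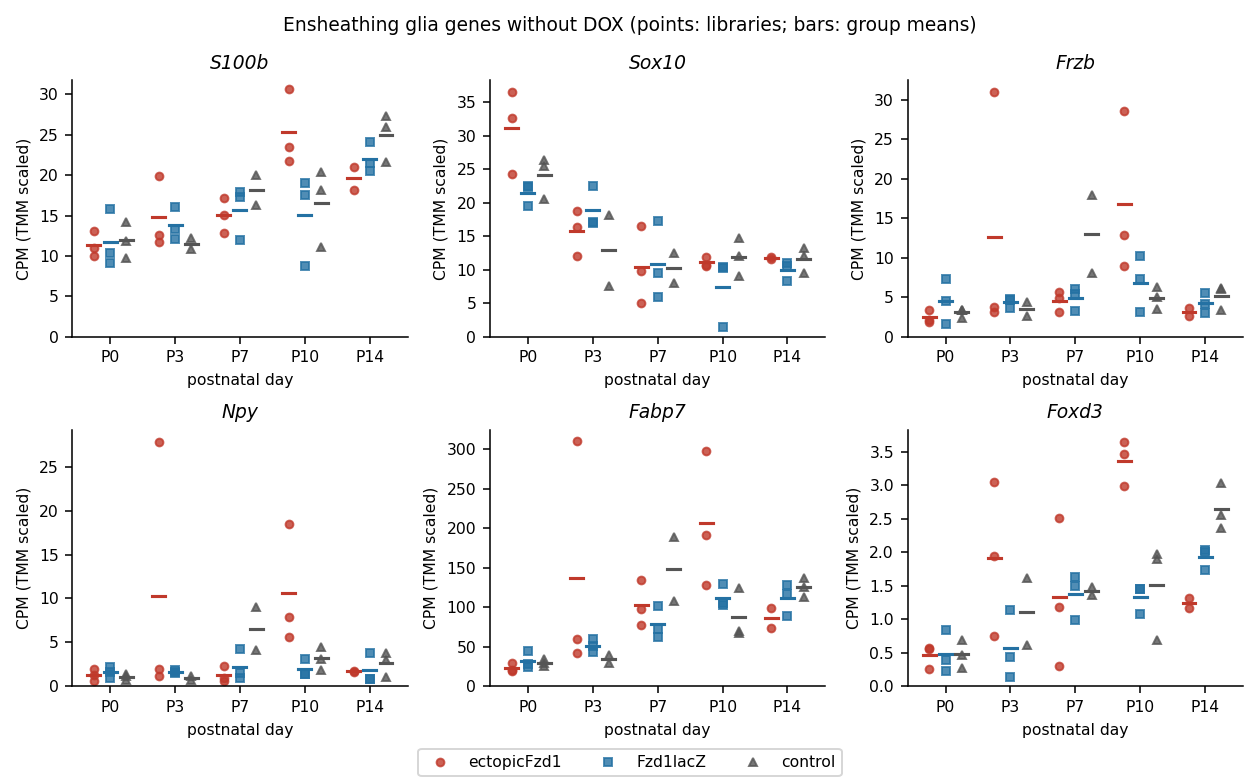
CPM (TMM scaled) of the 6 members by postnatal day without DOX, 1 point per library and a bar at each group mean, with ectopicFzd1 left, Fzd1lacZ in the middle and control right. Fabp7 and S100b are higher at P14 than at P0 and Sox10 is lower, and single ectopicFzd1 libraries at P3 and P10 stand far above the others in Frzb, Npy and Fabp7.

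Of 18 other genes known from ensheathing glia, 10 were higher and 3 were lower at P14 than at P0 without DOX. Over all genes, 31.6% were higher and 27.2% lower. The median log2 fold change of the 18 was 0.84, against 0.06 over all genes. Cdh19, a cadherin of neural crest glia, rose by 1.01 (SE 0.16, adjusted p = 4.4e-07). The 3 that fell were Ednrb, a receptor of the neural crest, at -1.53 (SE 0.23), Ngfr, the low-affinity neurotrophin receptor, at -0.78 (SE 0.20), and Erbb3, the neuregulin receptor of glial precursors, at -0.57 (SE 0.09).

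With DOX, the first age was P1. The difference between the courses with and without DOX was not tested. Averaged over both genotypes, Fabp7 was higher at P14, as it was without DOX, and S100b, Sox10 and Frzb were lower, among 48.4% of genes that passed in this comparison (21.8% higher and 26.6% lower). The median log2 fold change of the 6 members was -0.77, against 0.03 over all genes. An F test over all ages with DOX passed for 5 members, all but Foxd3, among 56.9% of genes. Of the other ensheathing glia genes, Gpm6b, Cryab, Cdh19 and Kcnj10 were higher at P14 than at P1 with DOX. Ngfr, Ednrb, Pmp22, Matn2 and Erbb3 were lower, and the rest did not pass.

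S100b stood at 14.6, 17.6 and 20.3 CPM (lowest, median and highest of 6 libraries) at P14, against 14.3, 29.4 and 36.9 CPM at P1. Its log2 fold change was -0.70 (SE 0.17, adjusted p = 0.000521). Only 1 of the 6 P1 libraries, ectopicFzd1 DOX P1 replicate 1, was as low as the P14 libraries. At P3 S100b was at 4.50, 8.92 and 11.7 CPM, below every P1 library, a step of -1.79 (SE 0.19, adjusted p = 2.6e-11) in which 26.9% of genes passed. The following step to P7, with 20.1% of genes, was 0.98 (SE 0.19, adjusted p = 0.000243). P14 set against P3 thus gave a rise of 1.09 (adjusted p = 1.5e-05, 31% of genes), where P14 set against P1 gave a fall. Without DOX, P14 set against P3 gave 0.72 (adjusted p = 0.000161, 40.8% of genes). P3 was taken as a starting age after seeing the data. All ectopicFzd1 libraries at P3 with DOX carry 1 ID in their titles, so they may not be separate animals. Age and the ID series cannot be told apart in the DOX steps from P1 to P3 and from P3 to P7. The same holds for P14 against P1, for every member.

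Frzb stood at 3.26, 3.75 and 4.08 CPM (lowest, median and highest) at P14, against 7.53, 10.8 and 11.9 CPM at P1, with no overlap. The log2 fold change was -1.49 (SE 0.38, adjusted p = 0.000711). Its step from P1 to P3 was -1.10 (SE 0.35, adjusted p = 0.0151), with an adjusted p of 0.0518 without control DOX P3 replicate 2 and of 0.0535 without control DOX P3 replicate 3. P14 set against P3 gave -0.39 (adjusted p = 0.549).

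Sox10 stood at 7.30, 10.9 and 11.8 CPM (lowest, median and highest) at P14, against 16.1, 20.2 and 23.3 CPM at P1, a log2 fold change of -0.93 (SE 0.20, adjusted p = 9.8e-05). The step from P1 to P3 was -1.01 (SE 0.20, adjusted p = 7.5e-05). Fabp7 stood at 96.4, 116 and 134 CPM at P14, against 14.6, 27.1 and 54.3 CPM at P1, a log2 fold change of 1.79 (SE 0.29, adjusted p = 5.8e-07). Its step from P3 to P7 was 1.19 (SE 0.28, adjusted p = 0.0020). Foxd3 (0.65, SE 0.42) and Npy (-0.84, SE 0.59) did not pass from P1 to P14. No member passed in the step from P7 to P10, in which 2.62% of genes did, and 0 had an unadjusted p under 0.05. Npy passed in the step from P10 to P14, with 0.998% of genes, at 0.395, 0.97 and 3.46 CPM at P14 and 2.78, 5.58 and 7.53 CPM at P10, with a log2 fold change of -2.06 (SE 0.56, adjusted p = 0.0483). That call ended when any 1 of its 12 libraries was left out, with estimates of -2.28 to -1.80 and adjusted p of 0.0518 to 0.146. These 12 include the pair of libraries, 1 of each age, whose titles share an ID.

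**Figure D2:**
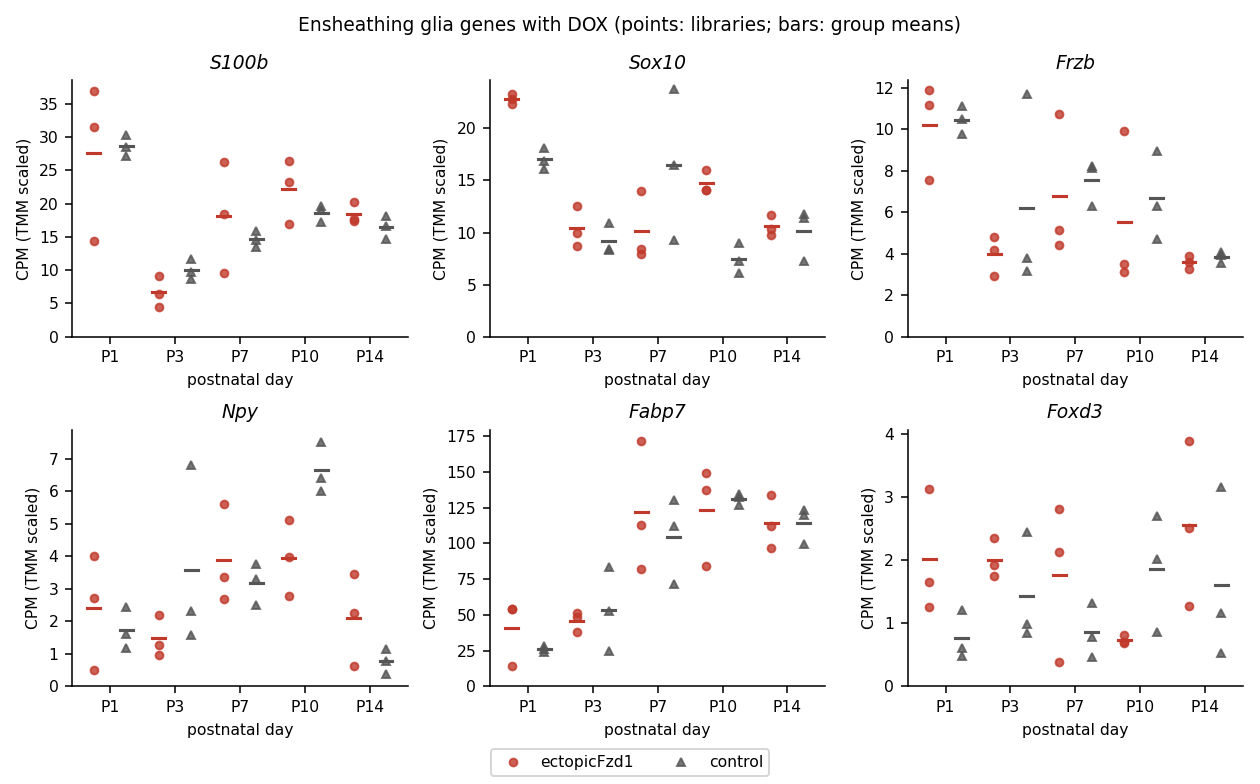
CPM (TMM scaled) of the 6 members by postnatal day in mice given DOX from P0, 1 point per library and a bar at each group mean, with ectopicFzd1 left and control right. The group means of S100b, Sox10 and Frzb are higher at P1 than at P3, and every library from P7 on has more Fabp7 than the P1 libraries.

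The P1 libraries also differed from all others in cartilage genes. The 11 cartilage genes, such as the collagen genes Col2a1 and Col9a1 and the proteoglycan gene Acan, summed to 1395 to 3381 CPM in the 6 DOX P1 libraries and to 98.8 to 478 CPM in the other 66 libraries. Col2a1 was at 51.8 to 534 TPM in the P1 libraries and at most at 20.9 TPM elsewhere. All 11 were lower at P14 than at P1 with DOX. Cartilage cells are known to make S100b and Frzb. Their part in the P1 levels of the members was not tested. The 18 other ensheathing glia genes summed to 357 to 520 CPM in the P1 libraries and to 324 to 679 CPM in the others, and neural crest genes to 135 to 169 CPM and 42.1 to 147 CPM.

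**Figure D3:**
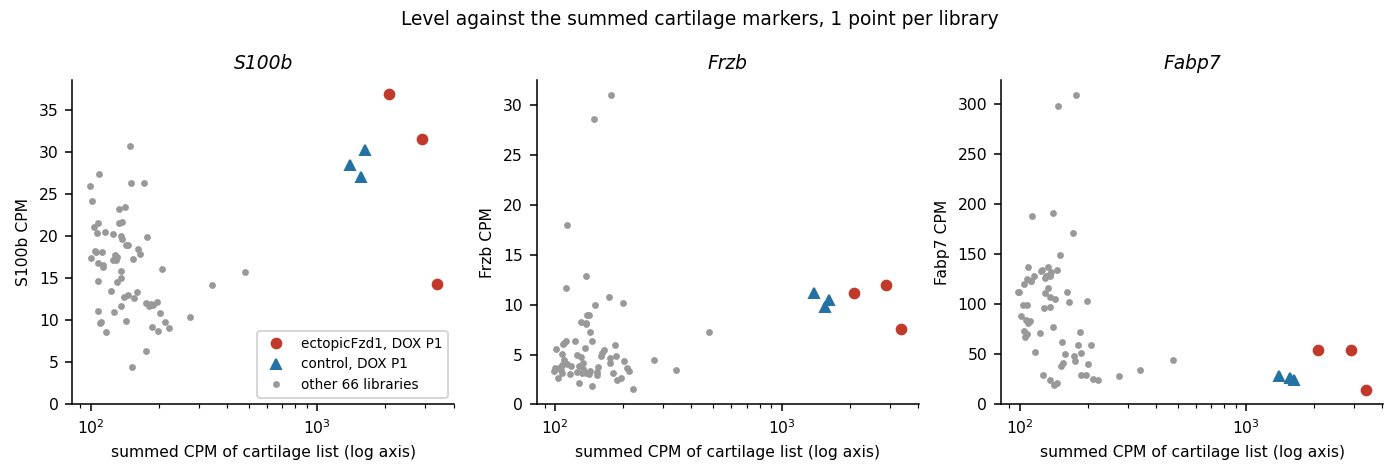
CPM of S100b, Frzb and Fabp7 against the summed CPM of 11 cartilage genes (log axis), 1 point per library. The 6 libraries of DOX P1 stand apart at 1395 to 3381 CPM of cartilage genes. There S100b lies between 14.3 and 36.9 CPM, Frzb between 7.53 and 11.9 CPM and Fabp7 between 14.6 and 54.3 CPM.

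Averaged over the 5 ages, no member passed the test between ectopicFzd1 and control mice without DOX. Of the 6 members 0 passed in edgeR, against 9.19% of all genes, 0 had an unadjusted p under 0.05, and DESeq2 and limma on log2(TPM + 1) also called 0. Fabp7 came nearest, with a log2 fold change of 0.36 (95% interval -0.02 to 0.75, adjusted p = 0.277). The estimates and intervals were 0.07 (-0.18 to 0.31) for S100b, 0.14 (-0.14 to 0.42) for Sox10, 0.23 (-0.32 to 0.77) for Frzb, 0.55 (-0.19 to 1.29) for Npy and 0.12 (-0.51 to 0.74) for Foxd3. With the ID series as a covariate, which could be estimated over P0, P3, P7 and P10, Sox10 was at -0.13 (adjusted p = 0.836). In the same comparison 14 of 15 genes of mature sensory neurons were lower and 0 higher, and 1 of the 18 other ensheathing glia genes, Matn2, which encodes a matrix protein, was lower at -0.22 (SE 0.06, adjusted p = 0.0167).

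The ectopicFzd1 effect differed among ages for 3 members. Frzb, Npy and Fabp7 passed the F test of whether the ectopic effect differs among ages, with adjusted p of 0.0253, 0.0290 and 0.0325, where 0.357% of genes did. At P3, Npy and Fabp7 were called higher, among 0.569% of genes called in either direction and 0.0903% called higher, and at P10 Frzb and Fabp7 were, among 10.3% and 5.62%. At P0, P7 and P14 no member passed, among 0.754%, 0.704% and 1.76% of genes, and of the 6 members 0, 2 (Frzb and Npy) and 0 had an unadjusted p under 0.05.

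At P3, Fabp7 was at 42, 309 and 59.4 CPM in ectopicFzd1 mice, against 40.4 and 29.4 CPM in control mice. Npy was at 1.22, 27.8 and 1.95 CPM in ectopicFzd1 mice, against 1.24 and 0.716 CPM in control mice. Frzb was at 3.80, 31 and 3.13 CPM in ectopicFzd1 mice, against 4.35 and 2.69 CPM in control mice. A single library, ectopicFzd1 P3 replicate 2, held the highest value of all 72 libraries in each of these 3 genes, and the other 2 ectopicFzd1 libraries lay near the control values. One of these 2, replicate 3, is the library whose Fzd1 of 43.0 CPM went against its label. The log2 fold changes were 2.0 (SE 0.47, adjusted p = 0.0274) for Fabp7, 3.45 (SE 0.79, adjusted p = 0.0243) for Npy and 1.95 (SE 0.56, adjusted p = 0.0995) for Frzb. Without replicate 2 they were 0.51 for Fabp7 and 0.55 for Npy, with an adjusted p of 1.0 for both. Without the 2 libraries of the study whose Fzd1 went against their labels all 3 genes passed, at 2.33 (adjusted p = 0.00209) for Fabp7, 3.85 (adjusted p = 0.00212) for Npy and 2.30 (adjusted p = 0.0132) for Frzb. Leaving out control P3 replicate 1 gave 2.25 for Fabp7 and 3.90 for Npy, and leaving out control P3 replicate 2 gave 1.79 and 3.13, and neither gene passed then, with adjusted p of 0.268 to 0.456. DESeq2 called both genes, limma on log2(TPM + 1) called neither, and neither passed when only the groups compared were fitted. Frzb passed without ectopicFzd1 P3 replicate 1 (2.41, adjusted p = 0.0121) and without the filter on low counts (2.01, adjusted p = 9.8e-07). The estimate without the filter was near the 1.95 of the main fit, so the adjusted p moved far more than the effect. The share of all genes called without the filter is not reported here, at this age or elsewhere.

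At P10, Fabp7 was at 128, 298 and 192 CPM in ectopicFzd1 mice, against 70, 67.9 and 124 CPM in control mice. Frzb was at 12.9, 28.6 and 8.96 CPM in ectopicFzd1 mice, against 5.07, 3.45 and 6.31 CPM in control mice. Npy was at 7.88, 18.5 and 5.6 CPM in ectopicFzd1 mice, against 1.90, 4.48 and 3.15 CPM in control mice. All 3 ectopicFzd1 libraries were above all 3 control libraries in these genes and also in S100b and Foxd3, and Sox10 overlapped. The share of all genes that separate in this way was not computed, here or where other groups are said not to overlap. The log2 fold changes were 1.25 (SE 0.40, adjusted p = 0.0327) for Fabp7, 1.83 (SE 0.52, adjusted p = 0.0170) for Frzb, 1.79 (SE 0.65, adjusted p = 0.0618) for Npy and 0.64 (SE 0.26, adjusted p = 0.0968) for S100b. Without ectopicFzd1 P10 replicate 2, the highest library, Fabp7 was at 0.87 (adjusted p = 0.282) and Frzb at 1.18 (adjusted p = 0.275). Without control P10 replicate 1 they were at 1.11 and 1.85 (adjusted p of 0.114 and 0.0534), and without control P10 replicate 2 at 1.10 and 1.62 (adjusted p of 0.138 and 0.0923). DESeq2 called Frzb (1.73, adjusted p = 0.0275) and not Fabp7 at this age, and limma on log2(TPM + 1) called neither. With only the groups compared fitted, Fabp7, Frzb and Npy (1.74, adjusted p = 0.0146) passed, and without the filter S100b (0.73, adjusted p = 0.0343) did as well. Mesenchyme genes moved too at P10, with 5 of 8 higher and a median log2 fold change of 0.80, and 9 of 15 mature neuron genes were lower.

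At P7 and P14 the estimates of Frzb, Npy and Fabp7 were below 0. At P7, Frzb was at 5.65, 3.08 and 4.91 CPM in ectopicFzd1 mice, against 18 and 8.06 CPM in control mice, and Npy at 0.627, 2.37 and 0.921 CPM in ectopicFzd1 mice, against 9 and 4.18 CPM in control mice. The groups did not overlap, and the log2 fold changes of -1.61 (SE 0.60, adjusted p = 0.291) and -2.13 (SE 0.82, adjusted p = 0.318) did not pass. Without the filter on low counts both did, with adjusted p of 0.00131 for Frzb and 0.00775 for Npy. At P14, Fabp7 was at 73.8 and 99.0 CPM in ectopicFzd1 mice, against 113, 125 and 137 CPM in control mice, with a log2 fold change of -0.53 (SE 0.45, adjusted p = 0.862). With only the groups compared fitted it passed (-0.54, adjusted p = 0.00563). The averaged estimate of Fabp7 was 0.09 without the 3 libraries described next, and those of Frzb and Npy were -0.15 and -0.03.

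Other ensheathing glia genes were read in the libraries that stood out, which were picked after seeing their high Fabp7, Frzb and Npy. The share of all genes above or below the other libraries of a group was not computed. In ectopicFzd1 P3 replicate 2, 13 of the 18 other ensheathing glia genes were above both other libraries of the group, 4 between them and 1 below. Ednrb was at 38.3 CPM against 8.99 to 19.3 CPM, and Kcnj10 at 1.52 CPM against 1.82 to 2.34 CPM. In ectopicFzd1 P10 replicate 2, 12 of 18 were above both, 2 between them and 4 below. Ednrb was at 33.0 CPM against 13.3 to 17.5 CPM, and Sox8 at 1.58 CPM against 2.61 to 2.69 CPM. In control P7 replicate 1, 11 of 18 were above and 7 below the only other library of its group, with Ednrb at 19.9 CPM against 10.1 CPM. S100b and Sox10 were within 1.64 times the mean of the other libraries of its group in ectopicFzd1 P3 replicate 2. Bulb neuron genes summed to 65.8 CPM in ectopicFzd1 P3 replicate 2, to 79.5 CPM in ectopicFzd1 P10 replicate 2 and to 103 CPM in control P7 replicate 1, and their part in the levels of the members was not tested.

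In the average over ages, no member passed the test between Fzd1lacZ and control mice. In edgeR 0 of 6 did, where 2.85% of all genes did. Of the 6, 0 had an unadjusted p under 0.05, DESeq2 and limma on log2(TPM + 1) called 0, and limma had 2 at an unadjusted p under 0.05. On log2(TPM + 0.1), limma called Npy lower (-1.06, adjusted p = 0.0357). The log2 fold changes and intervals were -0.02 (-0.27 to 0.23) for S100b, 0.00 (-0.28 to 0.28) for Sox10, 0.00 (-0.35 to 0.35) for Fabp7, -0.18 (-0.72 to 0.36) for Frzb, -0.14 (-0.88 to 0.60) for Npy and -0.36 (-0.99 to 0.28) for Foxd3. At the single ages P0, P3, P7, P10 and P14 the test called no member, among 7.73%, 1.08%, 0.0858%, 0.285% and 0.714% of genes, and only Frzb and Fabp7 at P7 had an unadjusted p under 0.05. The F test for a difference among ages called 0 of 6, among 2.77% of genes, and 0 had an unadjusted p under 0.05. At P7, Fabp7 was at 102, 72.9 and 62.4 CPM in Fzd1lacZ mice, against 188 and 107 CPM in control mice, with a log2 fold change of -0.89 (SE 0.43, adjusted p = 0.933). Frzb was at 5.46, 5.99 and 3.27 CPM in Fzd1lacZ mice, against 18 and 8.06 CPM in control mice, without overlap and with a log2 fold change of -1.41 (SE 0.57, adjusted p = 0.768). Without the filter on low counts both passed at P7, with adjusted p of 0.0323 for Fabp7 and 0.00819 for Frzb. At P10, DESeq2 called none and limma on log2(TPM + 1) called S100b (-0.96, adjusted p = 0.00378), Sox10 (-0.85, adjusted p = 0.0151) and Npy (-1.29, adjusted p = 0.0417) lower. In TPM, S100b was at 1, 4.72 and 1.15 in Fzd1lacZ mice, against 3.53, 6.47 and 4.4 in control mice, and in CPM at 8.7, 17.5 and 19 in Fzd1lacZ mice, against 11.1, 20.3 and 18.1 in control mice. Fzd1lacZ P10 replicates 1 and 3, the low ones in TPM, had 66.1% and 71% of their gene counts in the Gm10800 family, and S100b rested on 6 and 13 reads in them. Of the other ensheathing glia genes, Matn2 was lower again, at -0.27 (SE 0.06, adjusted p = 0.00687). Omp, whose locus carries the tTA insertion in control mice, was higher in Fzd1lacZ mice by 3.4 (SE 0.18, adjusted p = 2.8e-22). The control groups are shared with the ectopicFzd1 comparison. Genotype and the ID series in the titles cannot be told apart in the knockout average or at P0, P3, P7 and P10 singly.

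With DOX, which shuts the transgene off, 0 of 6 members differed between ectopicFzd1 and control mice on average, among 0.826% of all genes, with 0 at an unadjusted p under 0.05. DESeq2 and limma on log2(TPM + 1) called 0, and limma had 1 at an unadjusted p under 0.05. At the single ages P1, P3, P7, P10 and P14 the test called no member, among 14.8%, 0.181%, 0.569%, 0.0858% and 0.199% of genes, and Foxd3 at P1 and Sox10 at P7 and P10 had an unadjusted p under 0.05. Limma on log2(TPM + 1) called Foxd3 higher at P1 (0.55, adjusted p = 0.00367), where it was at 1.26, 3.14 and 1.66 CPM in ectopicFzd1 mice, against 1.22, 0.61 and 0.477 CPM in control mice. The F test for a difference among ages called 0 of 6, among 9.6% of genes, with Sox10 at an adjusted p of 0.0505. At P10, Sox10 was at 14, 16 and 14 CPM in ectopicFzd1 mice, against 9.03, 6.07 and 7.24 CPM in control mice, without overlap, and the log2 fold change of 0.98 (SE 0.32, adjusted p = 0.303) did not pass. It did without the filter on low counts (1.01, adjusted p = 0.0278) and with only the groups compared fitted (0.94, adjusted p = 0.0179), and without the filter Fabp7 passed at P1 (0.72, adjusted p = 0.0371). The ectopic effect without DOX minus that with DOX, over the 4 ages they share, passed for 0 of 6, among 2.39% of genes. It was 0.57 (95% interval -0.01 to 1.16) for Fabp7, 0.69 (-0.14 to 1.53) for Frzb and 0.72 (-0.43 to 1.87) for Npy. The Npy value was -0.59 when P3, where all 3 ectopicFzd1 DOX titles carry 1 ID, was left out, and 0.00 without ectopicFzd1 P3 replicate 2. Without the 3 high libraries, a choice made after seeing the data, it was 0.22 for Fabp7, 0.22 for Frzb and -0.01 for Npy, and Fabp7 passed without the filter on low counts (0.60, adjusted p = 0.0115). In control mice, DOX against no DOX passed for 0 of 6, among 0.867% of genes. At P3, P7, P10 and P14 singly it also called no member, among 7.85%, 3.81%, 0.0497% and 0.0542% of genes, and Npy at P3 and S100b at P14 had an unadjusted p under 0.05. For both of these averaged comparisons 0 members had an unadjusted p under 0.05 in edgeR, and DESeq2 and limma called 0. Omp, the gene that carries the tTA insertion, was lower in ectopicFzd1 than in control mice with DOX, at -3.32 (SE 0.17, edgeR adjusted p = 3.5e-23). In control mice Omp was higher with DOX than without, at 2.07 (SE 0.20, edgeR adjusted p = 5.3e-11). The cause of these Omp differences was not tested. Genotype or DOX and the ID series cannot be told apart in these averaged comparisons.

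**Figure D4:**
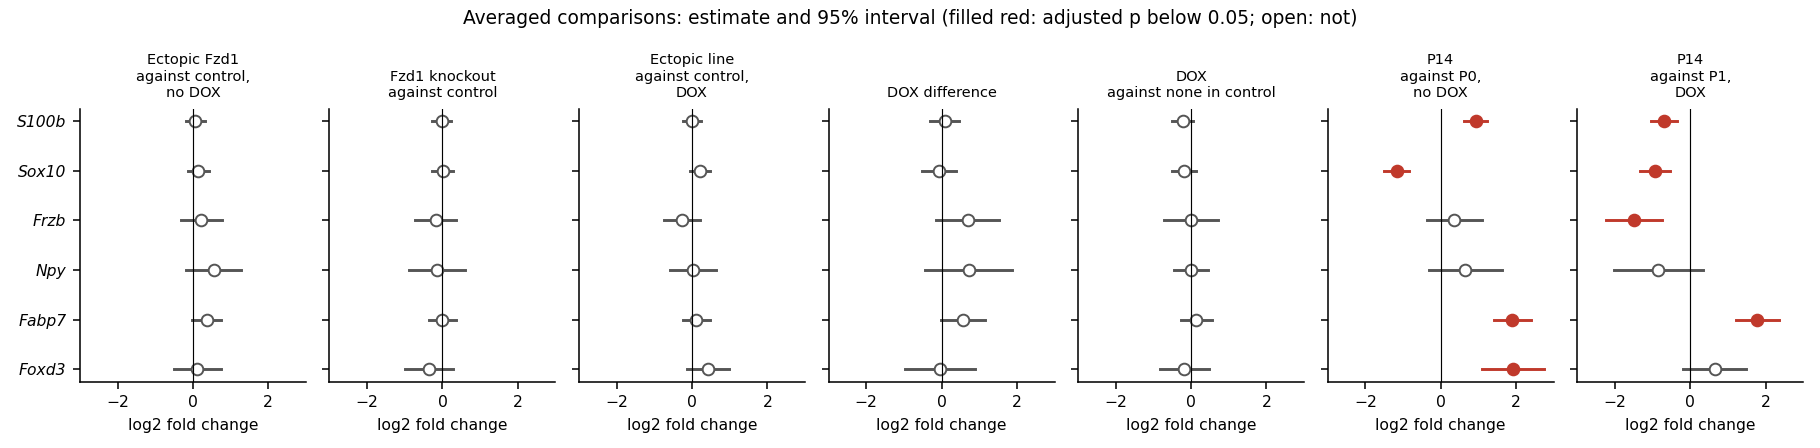
Log2 fold change (point) and 95% interval (line) of the 6 members in the 7 averaged comparisons, filled red where the adjusted p was below 0.05 and open where it was not. Each of the 5 comparisons of genotype or DOX has open points at every member, and the 2 comparisons of age have 4 filled points each.

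The members did not vary as 1 group between libraries. After the mean of each group was taken off log2(CPM + 1), Fabp7 and Npy varied together over the 72 libraries (Pearson r = 0.745, Spearman rho = 0.617), as did Frzb and Fabp7 (r = 0.696, rho = 0.554), Frzb and Npy (r = 0.634, rho = 0.468) and S100b and Fabp7 (r = 0.579, rho = 0.571). Sox10 did not follow Fabp7 (r = 0.011, rho = -0.083) or Frzb (r = -0.117, rho = -0.063). Without the 2 libraries farthest from the median the pairs with Fabp7 stood at 0.617 for Npy, 0.587 for Frzb and 0.507 for S100b. Without the 3 high libraries, Npy and Fabp7 were at 0.550 and Frzb and Npy at 0.331. These values are descriptions, and the genes in them share a library, its depth and its dissection.

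Among the 5 genes most like each member within groups were Ptn (r = 0.844) and Gja1 (r = 0.793) for Fabp7, Mmd2 (r = 0.775) for Npy and Ptgds (r = 0.741) for Frzb. Of the 18 other ensheathing glia genes, 14 went more closely with Fabp7 than with Sox10. Their median r with Fabp7 was 0.391, against -0.003 over 16919 genes. With Sox10 it was 0.171, against 0.130, and Erbb3 was the gene of that list most like Sox10 (r = 0.630). The genes most like S100b were Myl9 (r = 0.809) and Colec12 (r = 0.806), and those most like Sox10 were Padi2 (r = 0.775) and Mfsd6 (r = 0.771). This measure was added after seeing the data.

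Across the 25 group means, the 5 most alike genes included Aspa (r = 0.926) and Moxd2 (r = 0.914) for Fabp7, Ptgds (r = 0.744) and Hey2 (r = 0.736) for Npy and Enpp2 (r = 0.797) and Itih2 (r = 0.784) for Frzb. For S100b they were Sparc (r = 0.895) and Epyc (r = 0.871), and for Sox10 Gne (r = 0.945) and Fam84b (r = 0.937). For Foxd3 the highest r was 0.726, with Bdh2.

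**Figure D5:**
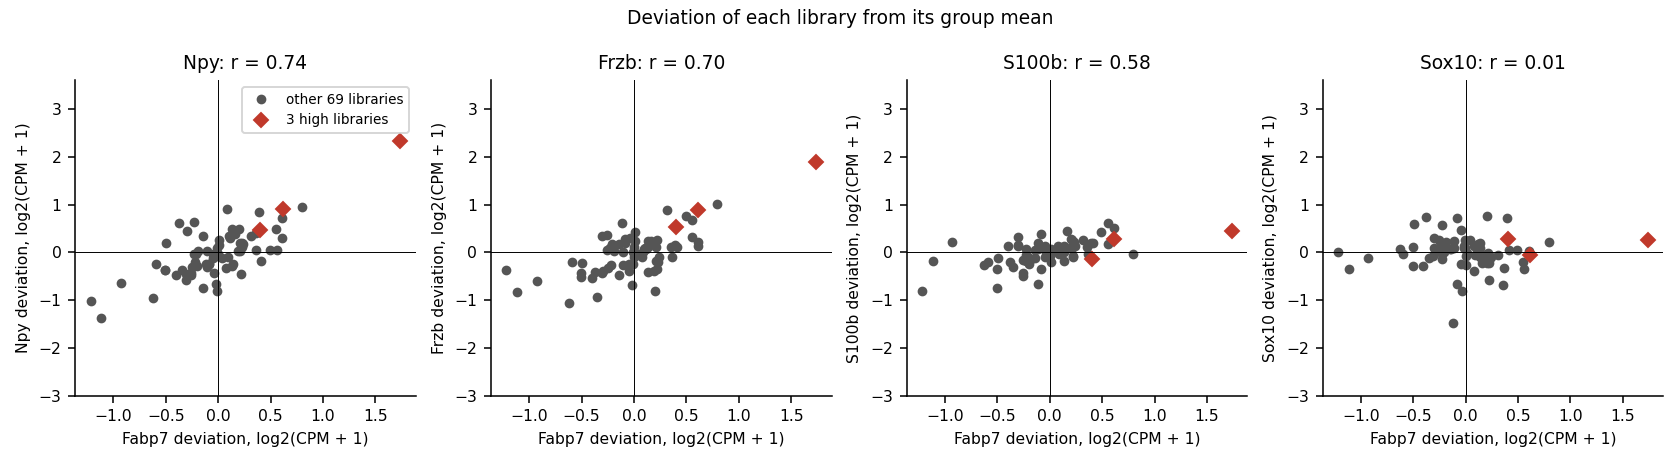
Deviation of Npy, Frzb, S100b and Sox10 from the group mean against that of Fabp7, in log2(CPM + 1), 1 point per library for 72 libraries, with the 3 high libraries (ectopicFzd1 P3 replicate 2, ectopicFzd1 P10 replicate 2, control P7 replicate 1) in red. Npy and Frzb rise with Fabp7 (r = 0.745 and 0.696) and Sox10 does not (r = 0.011).

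Genes related to the members were read beside them. Of 8 other secreted Wnt antagonists, 1, Sfrp4, was higher in Fzd1lacZ mice at 0.56 (SE 0.16, adjusted p = 0.0333). From P0 to P14 without DOX, 3 of the 8 rose and 3 fell, with Sfrp5 at 2.48 (SE 0.39) and Sfrp1 at -1.11 (SE 0.10). Of 10 other S100 genes, S100a5, which is made in olfactory sensory neurons, was lower with ectopic Fzd1 at -2.26 (SE 0.22, adjusted p = 3.8e-12) and S100a1 was higher at 0.41 (SE 0.09, adjusted p = 0.00152), where S100b was at 0.07. Of 2 other fatty acid-binding protein genes, Fabp5 was higher at 0.29 (SE 0.08, adjusted p = 0.0160). The 9 Schwann cell and myelin genes had a median log2 fold change of -0.17 with ectopic Fzd1 and of -0.06 in the knockout, against -0.01 and 0.02 over all genes.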

How the data were processed

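Total RNA was sequenced from 72 libraries of olfactory epithelium, prepared with TRIzol and a stranded, ribosome-depleted kit per the labels. Per the submitters' processing notes, the authors used bcl2fastq 2.18, STAR 2.6.1c and RSEM on mm10. The deposited count table holds raw read counts per gene from STAR, and the deposited TPM table holds transcript-length-scaled RSEM values. Annotation release and strand setting are not given in the sources used here.

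Counts were tested in R 4.3.3 with edgeR 4.0.16: filterByExpr (22144 genes), TMM, 1 term per group over all 72 libraries, and the quasi-likelihood test with Benjamini-Hochberg adjustment over all genes at 0.05. In all, 39 comparisons and 6 F tests were run. Averages weight ages and genotypes equally. The code was tested on simulated data. Members and lists were chosen with earlier results of these data known. All 6 members are named in every comparison, up to 4 called genes of another list by smallest p, and the 5 most alike genes by group means, of which some are not reported here; likeness within groups was added after seeing the data, and some single values of other genes were named after they were seen. Alternatives were DESeq2 1.42.0, its size factors, 2 other filters, fits on the compared groups, limma 3.58.1 on log2(TPM + 1) and log2(TPM + 0.1), the title IDs as covariate, and libraries left out. Reads listed as unmapped, multimapping, ambiguous or outside genes stayed out of library sizes.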

Additional observations from a re-analysis of the deposited data

Results flagged for a closer look

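Frzb, Npy and Fabp7 were the 3 members whose ectopicFzd1 effect differed among the 5 ages without DOX, by edgeR's F test over the ages (adjusted p of 0.0253 for Frzb, 0.029 for Npy and 0.0325 for Fabp7). The effects were positive at P3 and P10 and negative at P7 and P14. Without ectopicFzd1 P3 replicate 2, ectopicFzd1 P10 replicate 2 and control P7 replicate 1, a choice made after seeing the data, the adjusted p was 0.758 for Frzb, 0.976 for Npy and 0.758 for Fabp7. Single libraries ended the call as well. For Frzb these were 6 of 27 libraries, for Npy 9 and for Fabp7 10, with adjusted p between 0.0509 and 0.162. Control P0 replicate 2, control P3 replicate 2, control P7 replicate 1 and ectopicFzd1 P10 replicate 2 ended it for all 3 genes. Control P10 replicate 2 and ectopicFzd1 P7 replicate 2 also did so for Frzb and Fabp7, and control P10 replicate 1, control P3 replicate 1 and ectopicFzd1 P3 replicate 2 for Npy and Fabp7. ectopicFzd1 P7 replicates 1 and 3 did so for Npy and ectopicFzd1 P14 replicate 1 for Fabp7.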

How the results depend on the processing

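No paired analysis was possible because the labels give no replicate numbers. In the averaged comparisons, leaving out each library in turn changed 0 of 1086 calls of single members. These fits kept the dispersion trend and the filtered genes of all libraries. A change of direction without a call counted as unchanged. In the averaged comparisons of genotype or DOX no member was called to begin with. Over the other alternatives, 690 values of 60 results were computed. Of these, 578 kept the side of the threshold and, outside F tests, the direction, and 51 lost and 5 gained a call. Another 54 changed direction with no call in either fit, and 2 changed direction with a call. In P14 against P0 and in P14 against P1, limma on log2(TPM + 1) called 3 and 5 members. Without a filter on low counts, 1 member (Fabp7) passed with ectopic Fzd1 (0.39, adjusted p = 0.0047) and 1 (Fabp7) in the DOX difference (0.60, adjusted p = 0.0115). On log2(TPM + 0.1), limma called 1 member (Npy) in the knockout (-1.06, adjusted p = 0.0357), where the median of all genes shifted by -0.36. The largest such shifts under TPM were -0.68 for P14 against P0 and -0.89 for P14 against P1. With P3 in place of P1 the DOX course had 2 calls, S100b at 1.09 and Fabp7, and Sox10 stood at 0.076. The F test by age called 3 members, 0 without the 3 high libraries, 0 under limma on log2(TPM + 1), 0 on log2(TPM + 0.1), and 0 to 3 with single libraries left out. The cause was not tested. A term for the series of title IDs could be estimated at some single ages and steps and over 4 ages of the ectopicFzd1 comparison, where Sox10 was at -0.13, and not in the averages of 5 ages. Foxd3 and Npy are limited by low counts, with as few as 1 read in a library. A change of theirs inside the intervals given remains compatible with the data, and the smallest change that could have been detected was not computed.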
